A study of Mus musculus with 4 samples.

Results

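The 4 surrogate light chain genes Vpreb1, Vpreb2, Vpreb3 and Igll1 were followed in sorted bone marrow cells of mice with loxP-flanked or wild-type Cnot3. They were taken by symbol from the 23312 genes with a deposited value, and all 4 were found. The surrogate light chain stands in for the immunoglobulin light chain before that chain is made. A VpreB protein and lambda5, the product of Igll1, pair with the newly made heavy chain and, with the signal chains Cd79a and Cd79b, form the pre-B cell receptor. This receptor tests the heavy chain and drives the expansion of pre-B cells. Vpreb3 encodes a related protein that stays inside the cell and has been found associated with immunoglobulin chains during their assembly. Its transcript is not restricted to the earliest B-cell stages.

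Libraries came from Cnot3 fl/fl and Cnot3 +/+ mice of the C57BL/6 strain, with 2 replicate libraries for each genotype, and whether each came from a separate mouse is not stated. Both genotypes carried RERTCre, a tamoxifen-inducible Cre recombinase, and both received 1 mg tamoxifen on days 1, 2, 4 and 7 before analysis on day 10. Bone marrow cells were sorted as B220+CD43+, and neither the age of the mice nor the cells in which Cre is active is given in the labels. The Cnot3 protein belongs to CCR4-NOT, a complex that trims poly(A) tails and so limits how long an mRNA lasts. The question was how the transcripts of these genes differed in sorted cells of tamoxifen-treated Cnot3 fl/fl and Cnot3 +/+ mice.

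Values were FPKM, fragments scaled to transcript length and library size. The absolute depth was unknown, and the spacing of the lowest values gave relative depths of 0.957 and 1 for the Cnot3 fl/fl libraries and 0.745 and 0.897 for the Cnot3 +/+ libraries. Cnot3 itself was at 39.0 and 40.3 FPKM across Cnot3 fl/fl replicates, against 41.6 and 39.3 FPKM across Cnot3 +/+ replicates, so the whole-gene value did not check the genotype labels. The labels do not name the exons between the loxP sites. Cnot3 +/+ replicate 1 stood apart in sex-linked transcripts, with Xist at 0.0242 FPKM, where the remaining 3 lay between 54.3 and 63.1 FPKM. B220 and CD43, the sorted surface proteins, are encoded by Ptprc and Spn. Both transcripts were abundant, Ptprc at 280.8 and 262.3 FPKM across Cnot3 fl/fl replicates, against 257.0 and 227.2 FPKM across Cnot3 +/+ replicates, and Spn at 226.6 and 213.6 FPKM across Cnot3 fl/fl replicates, against 186.6 and 177.4 FPKM across Cnot3 +/+ replicates.

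Vpreb1 and Vpreb2 are near-identical copies, and a stretch of both coding sequences is shown to let their likeness be seen. Of 429 coding bases in the GENCODE M21 transcripts, 420 were identical and 9 differed, an identity of 97.9%. Coding positions 238 to 387 hold 6 of these differences, which stand in capitals.
Vpreb1: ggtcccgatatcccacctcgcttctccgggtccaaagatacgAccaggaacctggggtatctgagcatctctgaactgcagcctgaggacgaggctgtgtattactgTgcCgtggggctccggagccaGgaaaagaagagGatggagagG
Vpreb2: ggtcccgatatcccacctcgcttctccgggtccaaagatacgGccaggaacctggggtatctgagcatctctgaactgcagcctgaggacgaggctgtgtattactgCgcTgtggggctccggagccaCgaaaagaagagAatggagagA
The longest run without a difference was 196 bases. Of the 50-base stretches of the Vpreb1 transcript, 32.5% were also in Vpreb2, and of the 100-base stretches 14.5%. No 50-base stretch of the Vpreb3 or Igll1 transcript occurred in a transcript of another gene. Fragments from the shared stretches could have been assigned to either copy, so the split between Vpreb1 and Vpreb2 is uncertain, whereas Vpreb3 and Igll1 had no such overlap. The coding sequences of Vpreb3 and Igll1 were 48.6% and 41.9% identical to that of Vpreb1, counted over all alignment columns, gaps included. Of 449 and 663 columns, 218 and 278 were identical, 134 and 118 were mismatches, and the rest were gaps.

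The bases before the RNA start are shown for the 3 genes whose transcripts fell. Of these, Igll1 and Vpreb1 are neighbours on chromosome 16, and Vpreb3 lies on chromosome 10. The sequences are the 250 bases before the start in RefSeq on GRCm38.p6, not the mm9 build of the deposited values. Capitals mark matches on either strand to 5 motifs of factors known in B cells. These were the E-box CANNTG, the EBF1 motif CCCNNGGG, the RUNX motif TGTGGT, the octamer ATTTGCAT and the Ikaros core TGGGAA. The Igll1 window is chr16:16863986-16864235 and the Vpreb1 window chr16:16869256-16869505, both on the minus strand, and the Vpreb3 window is chr10:75948050-75948299 on the plus strand.
Igll1: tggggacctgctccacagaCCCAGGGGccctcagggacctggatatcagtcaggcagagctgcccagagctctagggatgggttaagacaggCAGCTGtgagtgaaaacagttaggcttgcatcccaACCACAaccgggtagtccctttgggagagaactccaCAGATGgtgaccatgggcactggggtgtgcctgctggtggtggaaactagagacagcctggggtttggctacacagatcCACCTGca
Vpreb1: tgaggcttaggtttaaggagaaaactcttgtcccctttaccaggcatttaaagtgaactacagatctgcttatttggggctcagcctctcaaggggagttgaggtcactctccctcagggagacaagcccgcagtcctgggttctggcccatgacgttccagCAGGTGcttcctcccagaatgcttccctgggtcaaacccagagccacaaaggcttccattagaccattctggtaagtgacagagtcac
Vpreb3: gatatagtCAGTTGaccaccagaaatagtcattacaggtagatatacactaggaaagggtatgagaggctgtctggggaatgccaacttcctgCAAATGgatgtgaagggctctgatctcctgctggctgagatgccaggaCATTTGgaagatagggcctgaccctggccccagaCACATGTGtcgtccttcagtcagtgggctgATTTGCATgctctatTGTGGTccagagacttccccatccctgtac
The E-box matched 3 times in the Igll1 window, 1 time in the Vpreb1 window and 5 times in the Vpreb3 window, of which 2 overlap, and 66.2% of 32851 windows of the same length hold at least 1. The EBF1 motif matched only in the Igll1 window among these 3 (11.8% of all windows), and the octamer only in the Vpreb3 window, 45 to 38 bases before the start (1.6% of all windows). The RUNX motif matched in the Igll1 and Vpreb3 windows (14.0% of all windows). The Ikaros core matched in none of these 3 (21.6% of all windows). The Vpreb2 window, which is not shown, held 1 match to the Ikaros core, 2 to the E-box and none to the other motifs. These matches are letters in a window and no measure of binding. The 106 bases before the Vpreb1 start matched a stretch upstream of the Vpreb2 coding sequence at 104 positions.

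All 4 genes had lower values in the sorted cells of Cnot3 fl/fl mice. Vpreb1 was 11.5-fold lower in mean FPKM, Igll1 7.12-fold, Vpreb2 6.37-fold and Vpreb3 5.79-fold. In the test across 11017 genes Vpreb1, Igll1 and Vpreb3 fell, while Vpreb2 did not pass (limma, adjusted p under 0.05). Thus 3 of 4 members were called lower, where 3.28% of all tested genes were called lower. In all 4 members neither Cnot3 fl/fl library reached the lower Cnot3 +/+ library, which held for 31.7% of all tested genes. The libraries are bulk samples, so fewer cells that carry these transcripts and less RNA per cell cannot be told apart.

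**Figure D1:**
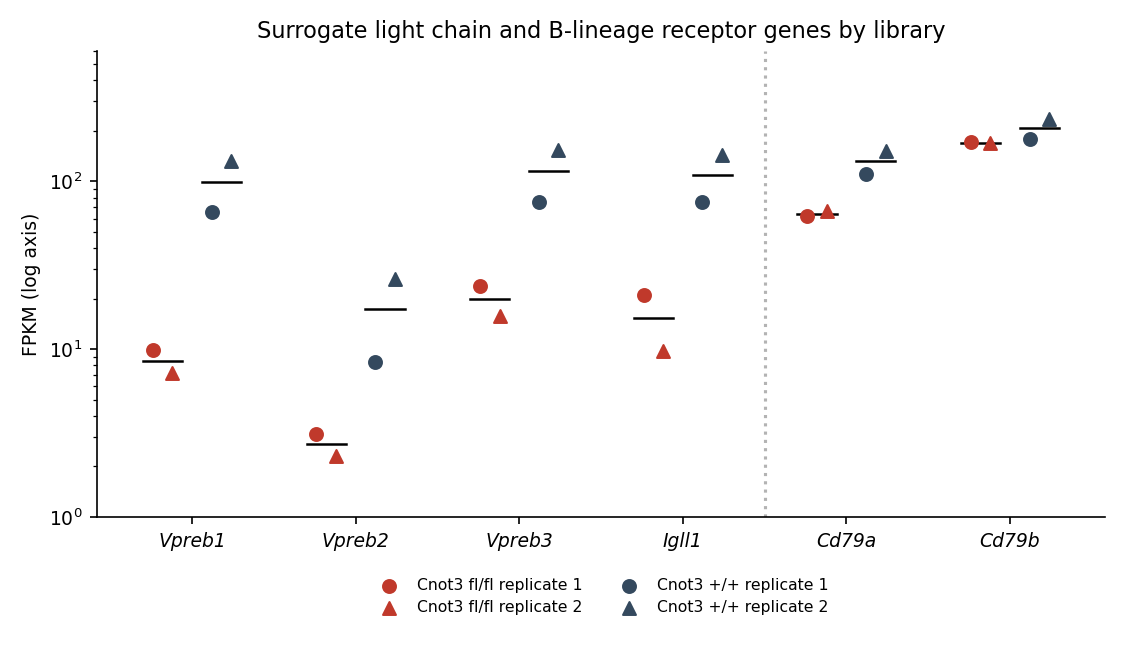
FPKM on a log axis for the 4 surrogate light chain genes and, right of the dotted line, Cd79a and Cd79b, with 1 point per library and a bar at the mean of each genotype. In each surrogate light chain gene both Cnot3 fl/fl points lie below both Cnot3 +/+ points, with the closest pair 2.71-fold apart in Vpreb2 and 6.60-fold apart in Vpreb1.

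Vpreb1, which encodes the variable-like portion of the surrogate light chain, was at 9.89 and 7.21 FPKM across Cnot3 fl/fl replicates, against 65.3 and 131.9 FPKM across Cnot3 +/+ replicates. Its mean was 8.55 ± 1.89 FPKM for Cnot3 fl/fl, against 98.6 ± 47.1 FPKM for Cnot3 +/+ (SD, n = 2 each), and its log2 fold change was -3.31 ± 0.36 (standard error; limma adjusted p = 0.029). Cnot3 +/+ replicate 2 was the highest and Cnot3 fl/fl replicate 2 the lowest library, and the genotypes did not overlap. Among the 11017 genes tested, 9 had a lower log2 fold change. In the deposited mm9 locus column Vpreb1 spans chromosome 16 from 16868493 to 16869348. The sources used here do not say whether locus starts count from 0 or 1.

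Igll1, which encodes lambda5, the constant-like portion that joins the VpreB protein, was at 20.98 and 9.81 FPKM across Cnot3 fl/fl replicates, against 75.6 and 143.8 FPKM across Cnot3 +/+ replicates. On the log2 scale the change was -2.77 ± 0.45 (standard error; limma adjusted p = 0.042). Its Cnot3 fl/fl libraries differed from each other by 2.14-fold, more than those of the other members, and still lay below both Cnot3 +/+ libraries. Igll1 lies beside Vpreb1, from 16860763 to 16864078 on chromosome 16, with 4415 bases between the loci.

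Vpreb3, whose protein is not part of the surface receptor, was at 23.9 and 15.7 FPKM across Cnot3 fl/fl replicates, against 75.1 and 154.7 FPKM across Cnot3 +/+ replicates. On the log2 scale it changed by -2.41 ± 0.39 (standard error; limma adjusted p = 0.041). The Cnot3 fl/fl libraries were again the lower ones, and Vpreb3 had the highest mean of the 4 genes in both genotypes. It lies on chromosome 10 from 75411056 to 75412391, apart from the other members.

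Vpreb2, the second copy of the VpreB gene, was the least abundant member, at 3.11 and 2.31 FPKM across Cnot3 fl/fl replicates, against 8.43 and 26.1 FPKM across Cnot3 +/+ replicates. Its log2 fold change of -2.12 ± 0.52 (standard error) did not pass (limma adjusted p = 0.069). Its Cnot3 +/+ libraries differed from each other by 3.10-fold, the widest spread of the 4 members, and did not overlap the Cnot3 fl/fl libraries. Its locus on chromosome 16, from 17980657 to 17981173, is short, and at these levels the log2(FPKM + 1) scale understates its change. In the authors' deposited table all 4 members were marked as significant and lower in Cnot3 fl/fl, with q-values of 0.0022 for Vpreb1, Vpreb3 and Igll1 and 0.0040 for Vpreb2, and that table marked 1.31% of its genes so. The table rests on the same 4 libraries.

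The falls held in direction with any library left out, while the calls did not. Without Cnot3 +/+ replicate 1, the library that stood apart in Xist, the log2 fold changes of Vpreb1 and Vpreb2 were -3.81 and -2.88 and both were called (limma, adjusted p = 0.039 and 0.048), and those of Vpreb3 and Igll1 were -2.93 and -3.23 and were not called. Without Cnot3 +/+ replicate 2, Cnot3 fl/fl replicate 1 or Cnot3 fl/fl replicate 2, none of the 4 was called, with log2 fold changes between -3.52 and -1.35. Over all genes tested, between 2 and 34 were called higher and between 0 and 20 lower with 1 library left out, so the calls of other genes given here rest on all 4 libraries as well. For any gene taken alone, the smallest exact permutation p that 2 against 2 libraries allow is 0.333.

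Ordered by level, Vpreb3, Igll1 and Vpreb1 averaged 19.8 ± 5.78, 15.4 ± 7.90 and 8.55 ± 1.89 FPKM over Cnot3 fl/fl libraries, against 114.9 ± 56.3, 109.7 ± 48.2 and 98.6 ± 47.1 FPKM in Cnot3 +/+ libraries (SD, n = 2 each). Means next to each other in this order lay within their spread in both genotypes. Compared inside each library, Igll1 was above Vpreb1 in every library, and Vpreb3 was above Igll1 in all but Cnot3 +/+ replicate 1. Vpreb2 was lowest in both, with 2.71 ± 0.565 FPKM over Cnot3 fl/fl and 17.3 ± 12.5 FPKM over Cnot3 +/+ libraries (SD, n = 2 each). Summed over the 4 genes the level was 57.9 and 35.1 FPKM across Cnot3 fl/fl replicates, against 224.4 and 456.6 FPKM across Cnot3 +/+ replicates, a 7.32-fold lower mean. Among the 11017 tested genes, ranked from the most abundant down, Igll1 stood at 4260 and 6749 in the Cnot3 fl/fl libraries and at 1064 and 457 in the Cnot3 +/+ libraries.

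Ratios between members separated the genotypes, in a design too small for a test of them to pass. The ratio of Vpreb1 to Vpreb3 was 0.413 and 0.458 in Cnot3 fl/fl libraries and 0.869 and 0.853 in Cnot3 +/+ libraries, a mean log2 difference of -0.98 against a spread between replicates of 0.075 (pooled SD). It was the narrowest spread of the ratios computed between members. The ratio of Vpreb1 to Igll1, both parts of the same light chain, was 0.471 and 0.735 in Cnot3 fl/fl and 0.864 and 0.918 in Cnot3 +/+ libraries, a log2 difference of -0.60 with a spread of 0.32. That of Vpreb3 to Igll1 was 1.14 and 1.61 in Cnot3 fl/fl and 0.994 and 1.08 in Cnot3 +/+ libraries. Vpreb1 made up 17.1% and 20.6% of the summed FPKM in Cnot3 fl/fl and 29.1% and 28.9% in Cnot3 +/+ libraries. The ratio of Vpreb2 to its near-identical copy Vpreb1 was 0.315 and 0.321 in Cnot3 fl/fl and 0.129 and 0.198 in Cnot3 +/+ libraries, subject to the shared stretches described above. The genotypes did not overlap in any of these 4 ratios, which share members and so are not independent. No share over ratios of other genes was computed to set beside this count. Each ratio had the exact two-sided permutation p of 0.333 that is the smallest 2 against 2 libraries allow.

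**Figure D2:**
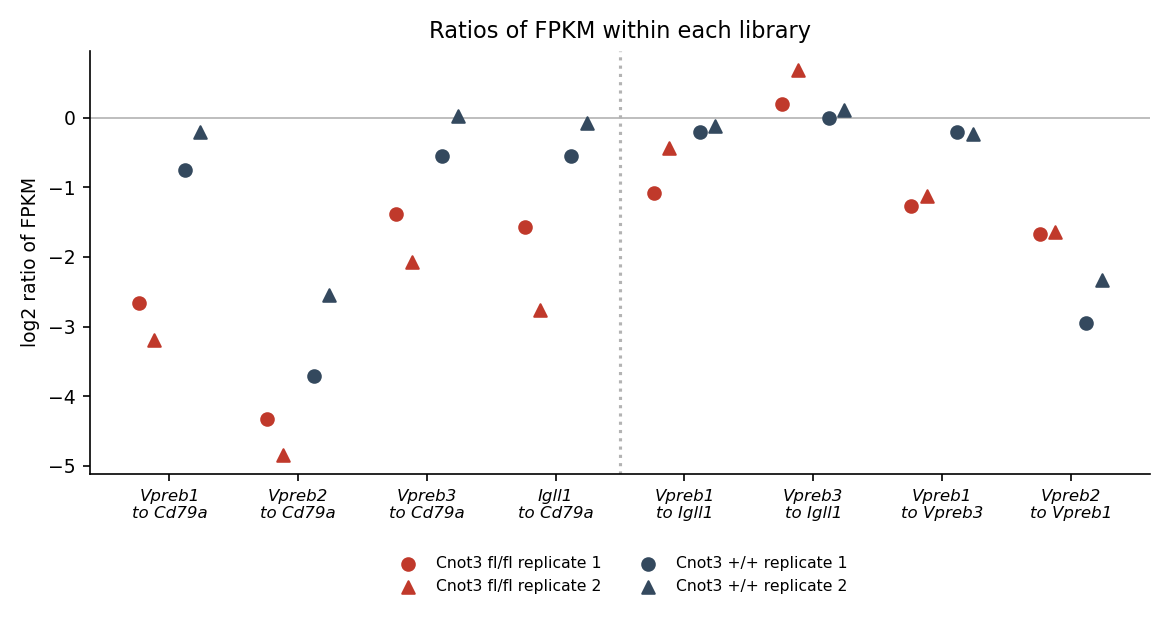
Log2 ratios of FPKM within each library, members to Cd79a on the left of the dotted line and members to each other on the right, with 1 point per library. The ratio of Vpreb1 to Cd79a is -2.66 and -3.20 in Cnot3 fl/fl and -0.76 and -0.20 in Cnot3 +/+ libraries, and that of Vpreb1 to Vpreb3 separates the genotypes with little spread inside each.

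Within each genotype the members moved together between libraries. Cnot3 +/+ replicate 2 exceeded replicate 1 by 2.02-fold in Vpreb1, 3.10-fold in Vpreb2, 2.06-fold in Vpreb3 and 1.90-fold in Igll1. Only 3.98% of tested genes had a ratio between these libraries of at least the lowest of these values, and the median gene had 0.987. In Cnot3 fl/fl, replicate 1 exceeded replicate 2 by 1.35-fold to 2.14-fold. Of all tested genes 6.19% reached the lowest of these. The higher Cnot3 fl/fl library was below the lower Cnot3 +/+ library by 6.60-fold in Vpreb1, 3.601-fold in Igll1 and 3.14-fold in Vpreb3, wider than the spread inside either genotype. In Vpreb2 this gap was 2.71-fold, narrower than the 3.10-fold spread between its Cnot3 +/+ libraries.

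The partners of the surrogate light chain in the pre-B cell receptor had smaller log2 fold changes. Cd79a fell to 62.4 and 66.2 FPKM across Cnot3 fl/fl replicates, against 110.5 and 152.1 FPKM across Cnot3 +/+ replicates (log2 fold change -1.001, limma adjusted p = 0.042). Cd79b was at 170.7 and 168.2 FPKM across Cnot3 fl/fl replicates, against 177.7 and 235.4 FPKM across Cnot3 +/+ replicates and did not pass (adjusted p = 0.28). The heavy chain gene Ighm was not found under that symbol among the genes with a deposited value, so it was not analysed. The ratios of all 4 surrogate light chain genes to Cd79a were lower too. Per unit of Cd79a, Vpreb1 was 5.45-fold lower, Igll1 3.602-fold, Vpreb3 2.75-fold and Vpreb2 2.74-fold, as geometric means. The summed surrogate light chain to Cd79a ratio was 0.928 and 0.530 in Cnot3 fl/fl and 2.03 and 3.002 in Cnot3 +/+ libraries (exact permutation p = 0.333, the smallest possible).

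Of 23 genes of proximal signalling below the pre-B cell receptor, 4 rose, 2 fell and 17 did not pass, where 6.22% of all tested genes were called higher and 3.28% lower, with a median log2 fold change of 0.19 against -0.01 over all genes tested. The phosphatase genes Ptpn6 and Inpp5d, which dampen receptor signals, rose with log2 fold changes of 0.79 and 0.50 (limma adjusted p = 0.040 and 0.042). Lyn and Btk, which encode kinases of the same pathway, rose with 0.57 and 0.61. Prkcb, which encodes a protein kinase C that links the receptor to NF-kappaB, fell with -0.66 (adjusted p = 0.028). Syk, the kinase that binds the phosphorylated signal chains, and the adaptor gene Blnk had log2 fold changes of 0.01 and 0.05. Lgals1, whose galectin binds the surrogate light chain on stromal cells in mouse bone marrow, was at 1071 and 1027 FPKM across Cnot3 fl/fl replicates, against 1461 and 1508 FPKM across Cnot3 +/+ replicates (adjusted p = 0.081).

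Of 12 genes for factors known to bind or drive surrogate light chain promoters, 1 fell, 1 rose and 10 did not pass, against 3.28% lower and 6.22% higher over all tested genes. Their median on the log2 scale was a change of -0.39. Pax5, the commitment factor of B-lineage cells, fell to 12.5 and 9.62 FPKM across Cnot3 fl/fl replicates, against 22.5 and 33.8 FPKM across Cnot3 +/+ replicates (log2 fold change -1.26, limma adjusted p = 0.045). Spi1, which encodes PU.1 and is also a myeloid factor, rose with 0.83 (adjusted p = 0.024). Ebf1, an activator of all these genes with Tcf3, had -1.48 and did not pass (adjusted p = 0.065), at 5.58 and 5.83 FPKM across Cnot3 fl/fl replicates, against 12.01 and 25.7 FPKM across Cnot3 +/+ replicates. Lef1, Myb and Runx1 had -1.24, -0.71 and -0.43, and Tcf3, which encodes the E2A proteins that bind E-boxes, had -0.36. Of 8 factors linked to silencing of the surrogate light chain after the pre-B stage, 0 rose, 0 fell and 8 did not pass, with 1 at an unadjusted limma p under 0.05. Among all 11017 tested genes, 3722 were at such a p. Ikzf1 and Ikzf3, which encode Ikaros and Aiolos, had log2 fold changes of -0.0043 and -0.60, and Irf4 and Irf8 had 0.40 and 0.08.

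**Figure D3:**
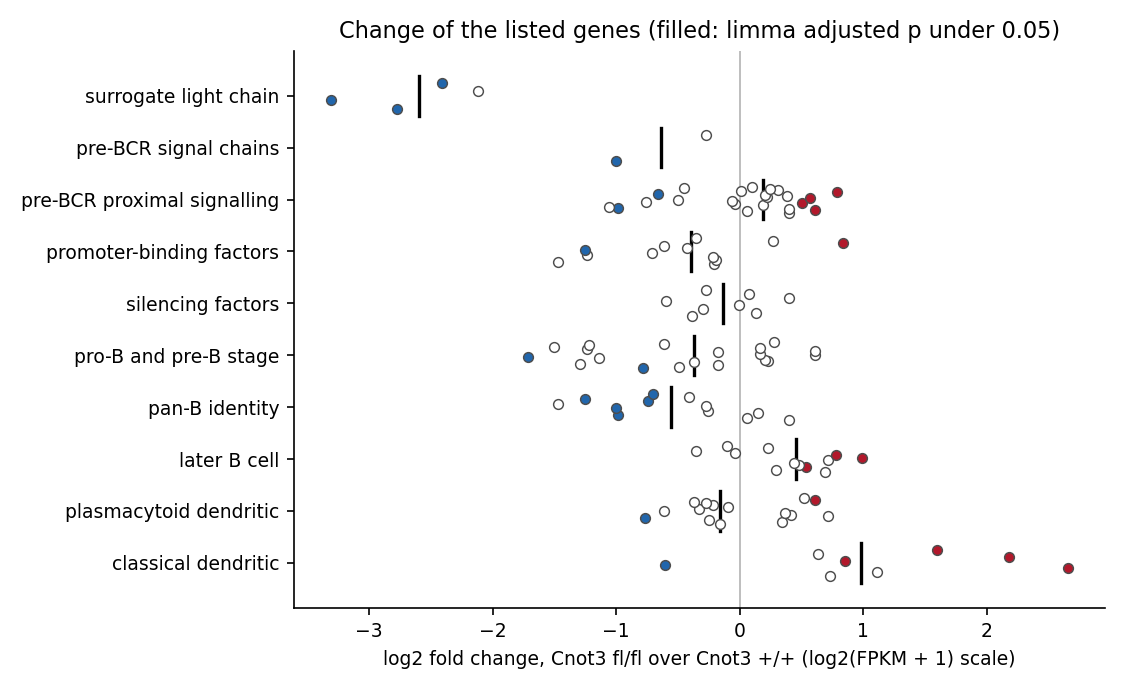
Log2 fold changes of Cnot3 fl/fl over Cnot3 +/+ on the log2(FPKM + 1) scale for the tested genes of 10 lists, with 1 point per gene and a bar at each list's median. Filled points passed limma at an adjusted p under 0.05. The surrogate light chain genes lie between -3.31 and -2.12, and the genes of the pan-B list between -1.48 and 0.40.

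Other B-lineage genes had smaller log2 fold changes. Over all tested genes 3.28% were called lower and 6.22% higher. Of 12 pan-B identity genes 5 fell, 0 rose and 7 did not pass, with a median log2 fold change of -0.56 and a lowest value of -1.48 in Ebf1. Beside Cd79a and Pax5, those that fell included Fcrla, an Fc receptor-like gene of B cells, and Ralgps2, with -0.74 and -0.70. Of 19 tested pro-B and pre-B stage genes Erg and Arpp21 fell, 0 rose and 17 did not pass, with a median of -0.37. Of the 19, 12 had a negative log2 fold change. In mean FPKM Erg was 4.49-fold lower and Rag1 3.47-fold, against 5.79-fold in Vpreb3, the least of the members. Enpep, at low levels, averaged 0.542 FPKM over Cnot3 fl/fl and 2.47 FPKM over Cnot3 +/+ libraries. Rag1, a subunit of the V(D)J recombinase, was at 4.72 and 2.31 FPKM across Cnot3 fl/fl replicates, against 7.58 and 16.8 FPKM across Cnot3 +/+ replicates (limma adjusted p = 0.092), and Rag2, its other subunit, changed by -1.22 on the log2 scale without passing (adjusted p = 0.080). Dntt, which adds bases at V(D)J joints and is a pro-B marker, was at 243.8 and 254.7 FPKM across Cnot3 fl/fl replicates, against 215.9 and 217.3 FPKM across Cnot3 +/+ replicates. Of 12 tested genes on the list of later B cells Ciita, H2-Ab1 and H2-Eb1, genes of the MHC class II pathway, rose, and 9 did not pass. Among the 12, 3 had a negative log2 fold change, including Ms4a1 with -0.36. The bulk libraries also held abundant dendritic cell transcripts, and whether B cells carried the rise was not tested.

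Transcripts of some other cells were abundant in all libraries, and their part in the surrogate light chain result was not tested. The counts of called markers stand against 6.22% higher and 3.28% lower over all tested genes. The 15 plasmacytoid dendritic cell markers summed to 8200 and 9638 FPKM across Cnot3 fl/fl replicates, against 10238 and 10019 FPKM across Cnot3 +/+ replicates, with 1 risen (Tlr7), 1 fallen (Cox6a2) and none at 0 in all libraries. The 9 classical dendritic cell markers summed to 532.2 and 648.5 FPKM across Cnot3 fl/fl replicates, against 372.7 and 404.2 FPKM across Cnot3 +/+ replicates. Of the 8 tested, 4 rose and 1 fell, and Cd8a, which some dendritic cells share with T cells, rose by 2.65 on the log2 scale (limma adjusted p = 0.024). The 13 measured neutrophil and monocyte markers summed to 543.8 and 537.5 FPKM across Cnot3 fl/fl replicates, against 429.1 and 490.4 FPKM across Cnot3 +/+ replicates, with 3 of 11 tested genes risen. Cybb alone gave 304.5 and 351.8 FPKM of these sums in Cnot3 fl/fl replicates, and 263.5 and 251.3 FPKM in Cnot3 +/+ replicates. The 18 T, NK and innate lymphoid markers summed to 1545 and 1265 FPKM across Cnot3 fl/fl replicates, against 1377 and 1201 FPKM across Cnot3 +/+ replicates, with Cd5 and Cd8b1 risen. The 8 plasma cell markers summed to 363.3 and 513.5 FPKM across Cnot3 fl/fl replicates, against 449.3 and 1014 FPKM across Cnot3 +/+ replicates, and Sdc1, which pre-B cells also carry, fell. The erythroid and the basophil and mast cell lists summed to between 21.6 and 65.1 FPKM in every library, with 0 genes called. Il3ra made up most of the basophil and mast cell sum in every library.

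Within 500 kb of the members lay 52 other tested genes, of which 2 rose and 2 fell, with a median log2 fold change of -0.01. These counts are near the shares over all tested genes, 6.22% higher and 3.28% lower, and so show nothing particular to the neighbours. Top3b, a topoisomerase gene 1635 bases from the Vpreb1 locus, averaged 27.0 FPKM over Cnot3 fl/fl libraries, against 27.2 FPKM over Cnot3 +/+ libraries. Near Vpreb1 and Igll1, Ppil2 rose and Ube2l3, a ubiquitin-conjugating enzyme gene, fell, with 0.48 and -0.54. Around Vpreb2, Dgcr14 rose with 0.47 and the 20 other tested genes did not pass, among them the nearest on either side, Slc25a1 and Dgcr6, with 0.06 and 0.02. On chromosome 10, Chchd10, which encodes a mitochondrial protein and lies 10577 bases from Vpreb3, fell to 22.7 and 18.5 FPKM across Cnot3 fl/fl replicates, against 42.3 and 68.0 FPKM across Cnot3 +/+ replicates (log2 fold change -1.34, limma adjusted p = 0.045).

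**Figure D4:**
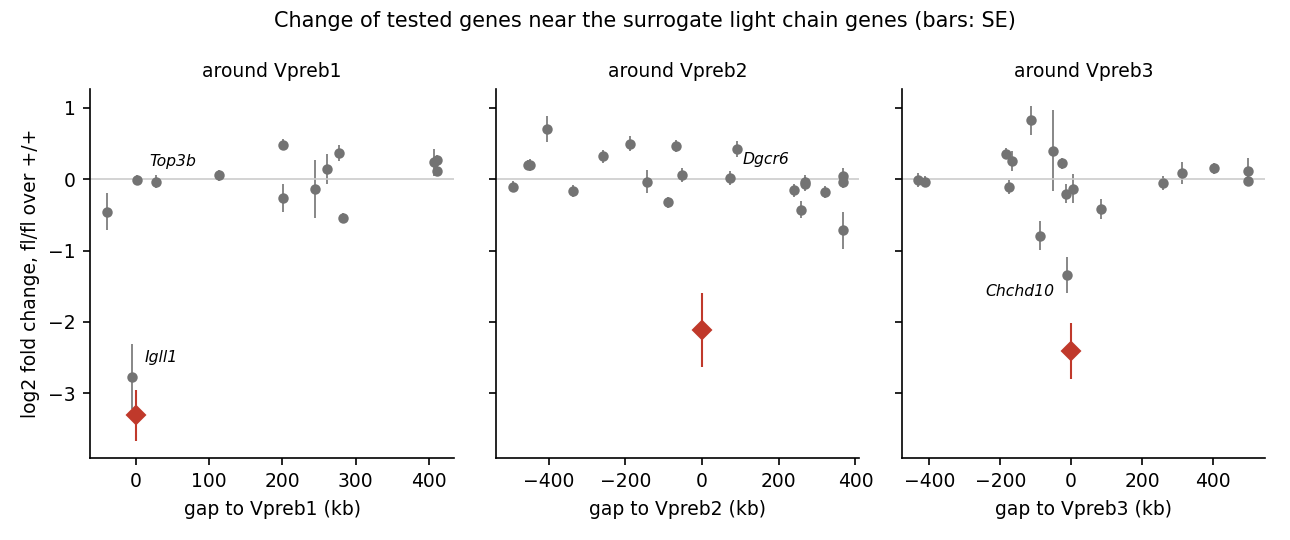
Log2 fold changes with standard errors of tested genes against the gap in kb to Vpreb1, Vpreb2 or Vpreb3, which are drawn as red diamonds at 0. Igll1 lies low beside Vpreb1, Chchd10 is at -1.34 beside Vpreb3, and the other tested neighbours lie between -0.79 and 0.83.

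Genes whose pattern over the 4 libraries was most like that of the members were sought by the Euclidean distance between centred log2(FPKM + 1) values. The members themselves lay 0.247 to 0.675 from their own mean, while the median tested gene was 2.81 away. The 10 nearest other genes lay 0.674 to 1.195 away. They were chosen for this likeness, so their values are a description. Nearest was Eps8l1, which encodes a protein related to the EGF receptor substrate Eps8. Both Cnot3 fl/fl libraries list it at 0, against 3.89 and 13.6 FPKM across Cnot3 +/+ replicates. Eps8l1 lies on chromosome 7 from 4416343 to 4430844, and Cnot3 on the same chromosome from 3596870 to 3629155. Whether this position bears on the Eps8l1 values was not tested. Myl4, a myosin light chain gene, was at 3.58 and 2.52 FPKM across Cnot3 fl/fl replicates, against 8.56 and 26.2 FPKM across Cnot3 +/+ replicates, close to the values of Vpreb2. The next were Gfra2, a receptor gene for GDNF-family ligands, Cplx2, a complexin gene, and Erg, an ETS-family factor of early haematopoiesis, with log2 fold changes of -1.96, -1.92 and -1.71. They were followed by Rag1, Gfra1, Pcp4l1, Myl10 and the adhesion receptor gene Gpr56. In all 10 genes both Cnot3 fl/fl libraries were below both Cnot3 +/+ libraries, and in each Cnot3 +/+ replicate 2 was the highest library.

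**Figure D5:**
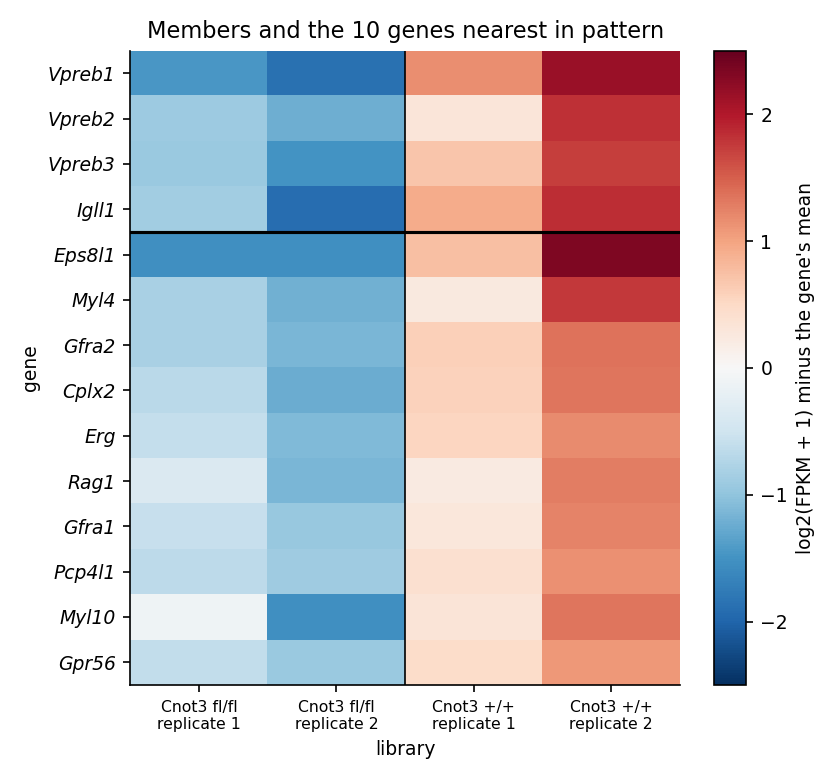
Log2(FPKM + 1) minus the gene's mean over the 4 libraries, as colour, for the 4 members above the line and the 10 genes nearest to them in pattern below it, with libraries in columns. All members are lowest in Cnot3 fl/fl replicate 2 and highest in Cnot3 +/+ replicate 2, from -1.90 in Igll1 to 2.16 in Vpreb1.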

How the data were processed

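Messenger RNA of B220+CD43+ bone marrow cells was measured in 4 libraries, grouped by the genotype in the labels. The submitters' processing notes name TopHat2 2.0.13, Cufflinks 2.2.1, Cuffnorm 2.2.1 and build mm9, without their roles. The annotation and whether counting used strand are not stated, although the kit was stranded. The authors deposited FPKM per gene and library, and a comparison table with FPKM per genotype, p-values and q-values, per the file headers. FPKM are not counts, so no count test was run. For 11017 genes averaging 1 FPKM or more, log2(FPKM + 1) was compared by limma 3.58.1 under R 4.3.3 (eBayes with a mean-variance trend, genotype as the only term, two-sided, Benjamini-Hochberg over all genes tested). Nothing shows that replicate numbers pair the libraries, so no block was used. Relative depth came from genes under 0.3 FPKM, where the most common ratio held for 5.92% to 10.5% of genes, so it is an estimate.

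The members and lists were chosen with earlier results of these data known. Named genes were the members, Cnot3, the receptor partners, list members past the threshold or with the smallest p, neighbours within 500 kb, and the 10 genes nearest in pattern. Syk, Blnk, Lgals1, Ikzf1, Irf4, Irf8, Dntt, Rag1, Rag2, Tcf3, Ptprc, Spn and Xist were also named, for their known roles, after their values were seen. Spi1 was matched through an older symbol. Motif windows came from RefSeq and coding sequences from GENCODE M21. The alternatives tried were other pseudocounts and filters, 2 rescalings, 2 forms of eBayes, the replicate block and leaving out each library. The values of 1 listed gene are not reported here, although the counts of its lists include it.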

Additional observations from a re-analysis of the deposited data

How the results depend on the processing

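The direction of all 4 members' log2 fold changes held under every alternative run. Vpreb1 was called under the other pseudocounts, the minimum of 5 FPKM, both rescalings, both other forms of eBayes and the replicate block. With no filter on low values its log2 fold change of -3.31 was not called (adjusted p = 0.067), nor were Vpreb3 at -2.41 and Igll1 at -2.77, so 0 members were called, and 4 genes in all were higher and 1 lower. There 16296 genes were tested, with 4389 at an unadjusted limma p under 0.05. Without the trend, and with robust eBayes, Vpreb3 at -2.41 and Igll1 at -2.77 were not called, which left 1 member. Without the trend 242 genes were higher and 69 lower over all genes, against 685 and 361. With robust eBayes more genes were called, 914 higher and 515 lower, yet Vpreb3 and Igll1 were at limma adjusted p of 0.074 and 0.084. With the replicate block Igll1 at -2.77 was not called (adjusted p = 0.051), and 2 members and 456 higher and 270 lower genes were called. The replicate numbers share only a number, and the correlation of the deviations of same-numbered libraries was 0.14. With 1 library left out, Vpreb1 lay between -3.81 and -2.81, Vpreb2 between -2.88 and -1.35, Vpreb3 between -2.93 and -1.90 and Igll1 between -3.28 and -2.26. Between 0 and 2 members, between 2 and 34 higher and between 0 and 20 lower genes were then called. The lone library of a genotype is assumed to vary like the other genotype's. Vpreb1 without Cnot3 fl/fl replicate 1 was at an adjusted p of 0.20. With a pseudocount of 1 the log2 difference in the Vpreb1 to Vpreb3 ratio was -0.90. The cause of these changes was not tested. The authors' q-values called 4 members. The absolute depth is unknown, so no counting error can be given for any value. The Cnot3 +/+ libraries differed in Xist and in Y-linked transcripts, so they were not repeats of 1 mouse. Nothing states or shows this for the Cnot3 fl/fl libraries, whose spread may be technical.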
